A study of Rattus norvegicus with 12 samples.

Results

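Basement membrane and integrin genes were followed in rat terminal end buds, the growing tips of the ducts of the immature mammary gland, after a dose of diethylstilbestrol (DES, a synthetic estrogen) at birth. The genes were those named on the array as integrin chains (Itga and Itgb), laminin chains (Lama, Lamb and Lamc), collagen IV chains (Col4a) or nidogens (Nid), together with Hspg2, Sparc, Dag1 and Agrn. The rule was read widely, so that chains with a letter in place of a number (Itgam, Itgad) counted as integrin genes. The genes reported are 32, and 24 of them were detected on both arrays of at least 1 group, among 11962 genes and unnamed probes that were fitted. The rule used no measured difference between groups, but the genes were chosen with earlier results of these data known. All animals were inbred female Sprague-Dawley rats, injected under the skin within a day of birth with sesame oil alone, with DES at 1 µg in oil or with DES at 100 µg in oil. The abdominal glands were collected from animals 35 or 49 days old, end buds were cut out of frozen sections by laser, and amplified Cy3-labelled RNA was put on a 1-colour Agilent rat array. There were 6 groups of 2 animals with 1 array each, so n = 2 arrays in every group and 12 arrays in all. Their number limits the precision.

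The basement membrane is the thin sheet of matrix under every epithelium and around blood vessels, muscle fibres and fat cells. Laminins, each made of an alpha, a beta and a gamma chain, and collagen IV form networks in it, which nidogens link. Cells hold on to the sheet through integrins, pairs of an alpha and a beta chain, and through dystroglycan. In the mammary gland basal epithelial cells make much of the sheet around the ducts, it is thin at the tip of the advancing end bud, and contact with laminin through integrins is known to help maintain milk protein expression in luminal cells. Stromal cells make basement membrane too, so that in such tissue pieces fewer cells of a type and less RNA per cell cannot be told apart.

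Each value below is the signal of a gene's brightest detected probe divided by the median signal of its array, and each difference is a log2 difference of group means with its standard error (SE). Levels of different probes were not compared. The arrays of a group correlated at 0.98 to 0.986 over all fitted genes. The oil arrays at 49 days stood apart: they detected 47.2% of probes against 57.5% to 61.7% in the other groups, and their lowest detected signal was 1.04 and 1.03 of the median against 0.214 to 0.368. Scan days were known for the other 10 arrays, with 2 arrays on each of 5 days, so for oil at 49 days the scan day cannot be told apart from treatment and age. With scan day as a block 1 residual degree of freedom was left and nothing was called in any comparison it allowed. Of the markers of epithelium on the array, 5 of 5 basal and myoepithelial and 8 of 10 luminal ones were detected (not Esr1 and Foxa1), but 8 of 12 endothelium, 9 of 9 fibroblast, 7 of 9 adipocyte and 9 of 13 leukocyte markers were detected as well.

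Promoter sequences are shown for 4 laminin chains whose brightest probes went opposite ways in these data, Lama1 and Lama2 at 35 days and Lamb1 and Lamb3 at 49 days. They are RefSeq windows of build GRCr8, from 250 bases before to 50 after the gene's start, 300 bases each, and 17 of the 24 genes had an entry. Lama1 lies at chr9:115139298-115139597, Lama2 at chr1:19491896-19492195, Lamb1 at chr6:53562846-53563145 and Lamb3 at chr13:107362303-107362602, all on the + strand. Capitals mark matches, on either strand, to the TATA box TATAAA, the CCAAT box CCAAT, the GC box GGGCGG or the AP-1 motif TGANTCA, none of which contains another.
Lama1: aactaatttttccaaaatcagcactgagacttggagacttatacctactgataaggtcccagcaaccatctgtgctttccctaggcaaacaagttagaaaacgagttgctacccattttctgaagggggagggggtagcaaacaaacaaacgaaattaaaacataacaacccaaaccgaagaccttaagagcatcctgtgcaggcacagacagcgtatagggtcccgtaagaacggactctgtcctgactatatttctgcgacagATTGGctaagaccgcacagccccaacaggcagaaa
Lama2: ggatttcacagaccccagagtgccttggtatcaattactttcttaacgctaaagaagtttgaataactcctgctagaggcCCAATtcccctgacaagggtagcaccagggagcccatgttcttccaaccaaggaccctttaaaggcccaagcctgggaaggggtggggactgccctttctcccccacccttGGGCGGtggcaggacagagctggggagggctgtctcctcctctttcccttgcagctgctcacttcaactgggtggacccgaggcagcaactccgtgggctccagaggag
Lamb1: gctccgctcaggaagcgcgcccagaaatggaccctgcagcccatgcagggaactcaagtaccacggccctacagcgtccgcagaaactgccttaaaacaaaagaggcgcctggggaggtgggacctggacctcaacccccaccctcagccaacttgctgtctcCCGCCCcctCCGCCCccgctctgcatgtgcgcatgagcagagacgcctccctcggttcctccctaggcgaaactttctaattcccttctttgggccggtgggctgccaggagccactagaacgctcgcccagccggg
Lamb3: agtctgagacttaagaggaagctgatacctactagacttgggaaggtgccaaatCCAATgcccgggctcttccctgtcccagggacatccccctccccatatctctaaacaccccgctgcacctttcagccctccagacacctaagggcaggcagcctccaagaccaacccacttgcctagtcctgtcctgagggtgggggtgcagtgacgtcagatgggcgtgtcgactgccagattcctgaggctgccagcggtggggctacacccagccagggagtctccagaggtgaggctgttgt

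Lama1 had a CCAAT box on the opposite strand 16 bases after the start, Lama2 a CCAAT box and a GC box, Lamb1 a pair of GC boxes on the opposite strand, and Lamb3 a CCAAT box. Among all 33469 promoters of the table, 37.5% held a CCAAT box, 33.1% a GC box, 14.2% a TATA box and 7.33% the AP-1 motif. Of the 17 windows matched to these genes, 11 held a GC box, 5 a CCAAT box and 2 a TATA box, and 0 held the AP-1 motif as spelled here. The windows were 45.7% (Lama1), 57.0% (Lama2), 63.7% (Lamb1) and 59.3% (Lamb3) G and C, against a median of 51.7% over all promoters.

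The first question was what the smaller dose did to these genes at 35 days. With DES 1 µg, Lama2 and Itga7 rose, and Lama1 fell at its brightest probe, whereas the mean of its detected probes differed by 0.22 (adjusted p = 0.865). Lama1, the alpha 1 chain of embryonic and some epithelial basement membranes, stood at 2.91 and 3.03 with oil and at 1.47 and 1.05 with DES 1 µg (0.419 of the oil level, -1.25 ± 0.25, adjusted p = 0.0203). Lama2, the alpha 2 chain known best from muscle and peripheral nerve, stood at 14.9 and 14.5 with oil and at 26.2 and 27.6 with DES 1 µg (1.82-fold, 0.87 ± 0.13, adjusted p = 0.00508). Itga7, the alpha 7 integrin chain that binds laminin on muscle, stood at 3.87 and 4.29 with oil and at 7.13 and 8.53 with DES 1 µg (1.92-fold, 0.94 ± 0.16, adjusted p = 0.0104). In each of these 3 genes the arrays of the groups did not overlap, which with 2 arrays a group is no test in itself. The share of all genes so separated is not given.

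Thus 2 of 23 tested genes rose, 1 fell and 20 did not pass. This was 13% called, where 7.83% of all 11613 genes and probes tested were called (3.36% higher and 4.47% lower). The median difference of the 23 was 0.08, against -0.03 over all. The Lama2 call held without any of the 12 arrays in turn. That of Itga7 ended when oil array 1 (adjusted p = 0.0762) or DES 1 µg array 2 (0.0756) was left out. The Lama1 call was lost without either oil array (adjusted p = 0.0927 without array 1 and 0.0912 without array 2) and without DES 1 µg array 2 (0.127). Without oil array 1 or DES 1 µg array 2, 1 gene passed in place of 3. On the scan day that held an array of each group, the differences were -0.98 for Lama1, 0.81 for Lama2 and 0.88 for Itga7. In the authors' deposited table of probes that differed at least 2-fold between these groups, the ratios of DES to oil were 0.422 for Lama1 and 2.292 for Itga1.

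**Figure D1:**
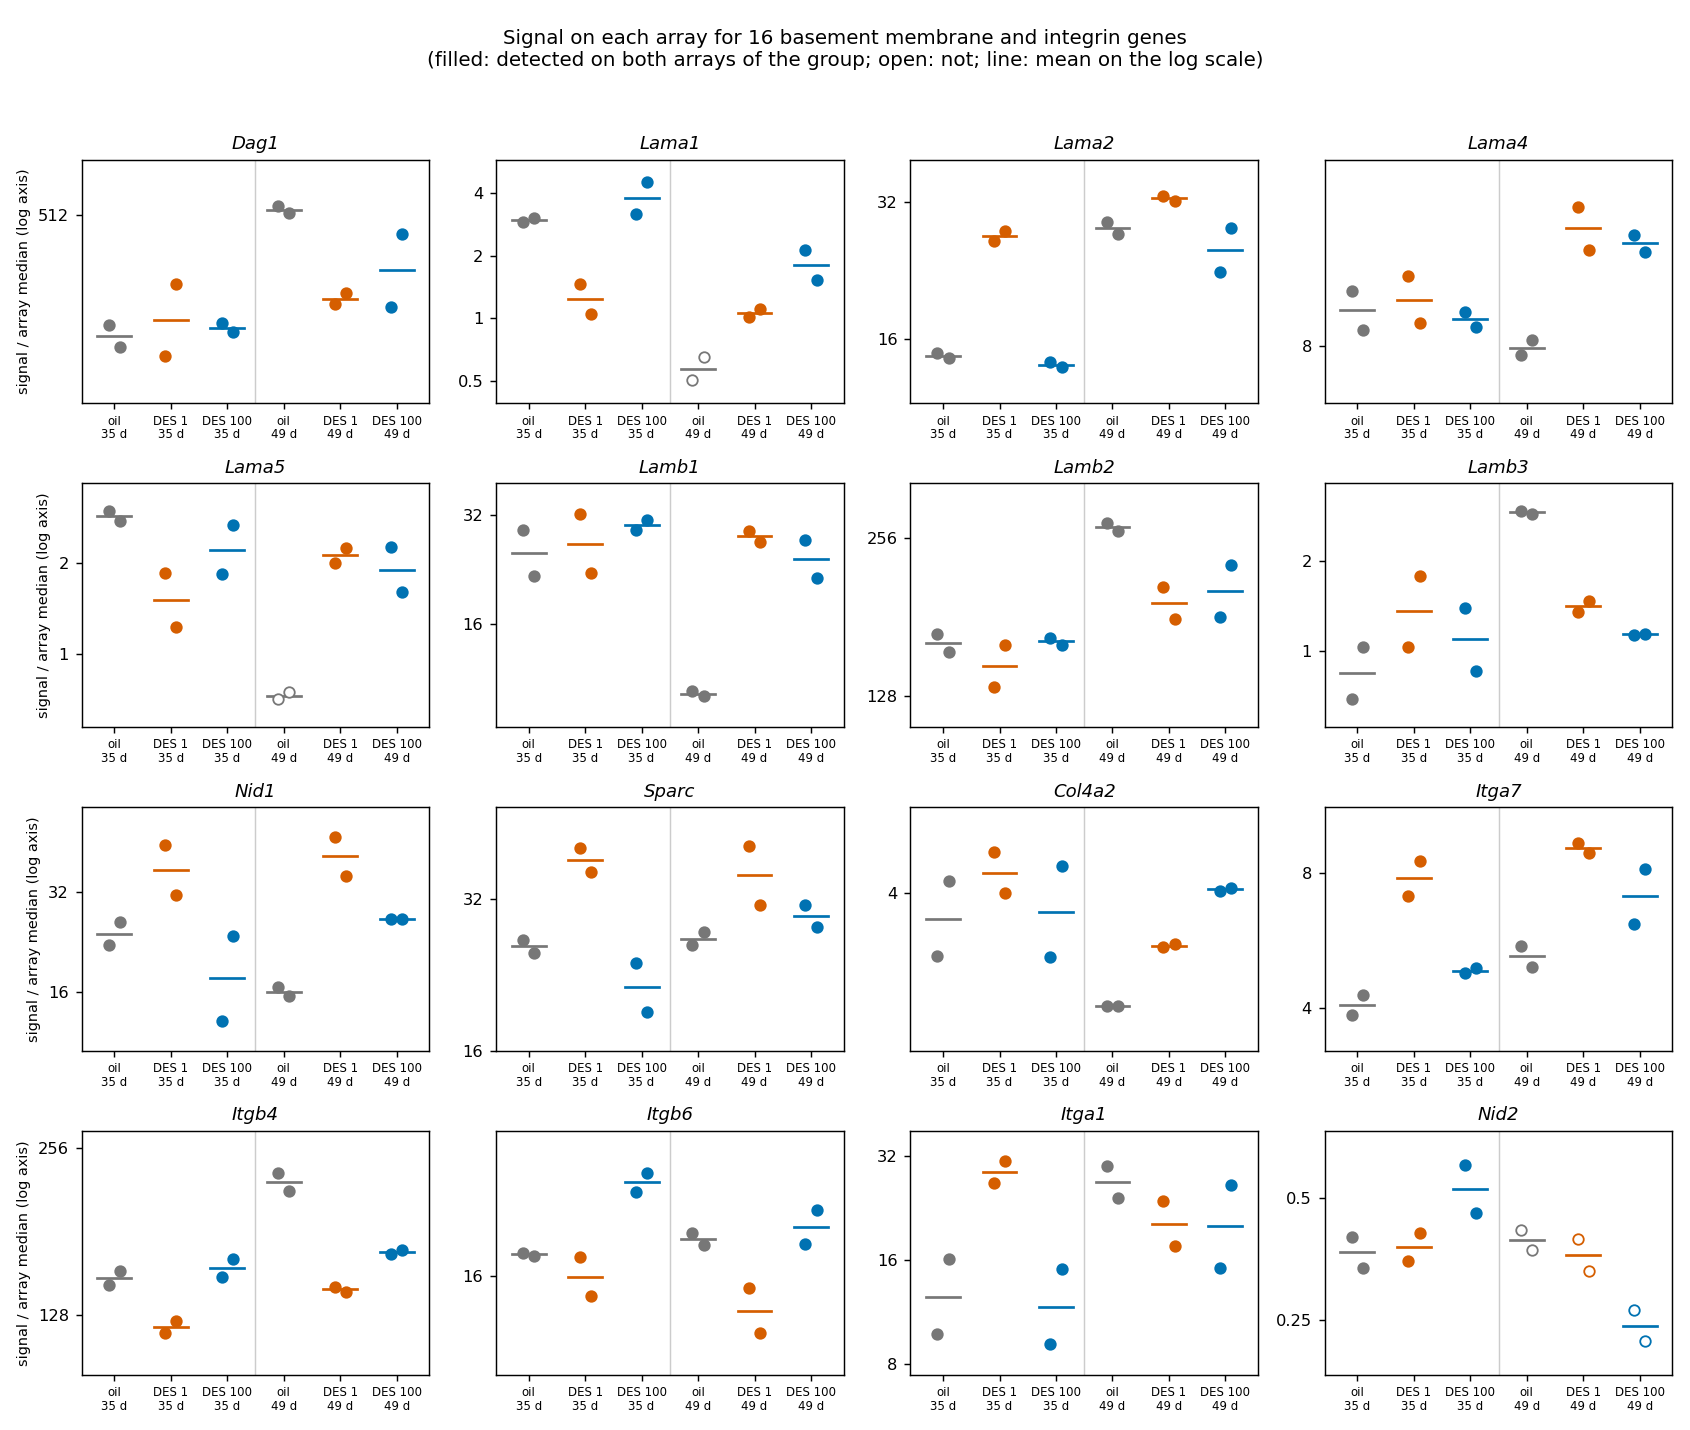
Signal over the array median (log axis) on each of 12 arrays for 16 genes, by group, with oil in grey, DES 1 µg in orange and DES 100 µg in blue, filled where detected on both arrays of the group and with a line at the mean on the log scale. At 35 days both values of Lama2 with DES 1 µg (26.2 and 27.6) lie above those with oil and DES 100 µg, and the oil values of Lamb1 at 49 days (10.4 and 10.1) lie below all others.

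The other laminin chains described here did not pass with DES 1 µg at 35 days. Lama5, the alpha 5 chain common in mature epithelia, was 2.97 and 2.76 with oil and 1.86 and 1.23 with DES (-0.92 ± 0.25, adjusted p = 0.0649). Lamb3, the beta 3 chain of the laminin under hemidesmosomes, was 0.689 and 1.03 with oil and 1.03 and 1.78 with DES (0.68 ± 0.31, adjusted p = 0.226), with ranges that met. Lama4, a chain of vessel walls (0.06 ± 0.13), Lamb1, the most widespread beta chain (0.08 ± 0.21), and Lamb2, the beta 2 chain of synapses and kidney filters (-0.14 ± 0.15), had differences smaller than their errors.

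Among matrix linkers and receptors, several genes lay apart between the groups without passing. Sparc, a secreted protein that binds collagen, was 26.6 and 25 with oil and 40.5 and 36.2 with DES 1 µg (0.57 ± 0.17, adjusted p = 0.0749). The nidogen gene Nid1 was 22.2 and 26 with oil and 44.4 and 31.4 with DES (0.64 ± 0.28, adjusted p = 0.216). Itga1, the alpha 1 chain of a collagen receptor, was 9.77 and 16.1 with oil and 26.7 and 30.8 with DES (1.19 ± 0.36, adjusted p = 0.0852). Itga5, the alpha chain of the fibronectin receptor, differed by 0.59 ± 0.16 (adjusted p = 0.0576). In all 4 genes both DES arrays were above both oil arrays, which is no test, and the share of all genes so separated is not given. Itgb4, the beta 4 chain of hemidesmosomes, was 145 and 154 with oil and 119 and 125 with DES (-0.29 ± 0.10, adjusted p = 0.129), while Dag1, which encodes dystroglycan, differed by 0.08 ± 0.16.

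Markers of cell types were compared between the same groups. Summed over the detected members of each list, endothelium markers ranged from 67.6 to 71.6 with oil and from 130 to 137 with DES 1 µg at 35 days, and 7 of 8 tested rose, such as Emcn, a surface protein of vessel lining (2.05 ± 0.15, adjusted p = 0.000191). Fibroblast markers summed to 793 to 857 and 1380 to 1480, with 2 of 8 higher, and adipocyte markers to 315 to 318 and 566 to 620, with 4 of 7 higher. Luminal epithelial markers summed to 2120 to 2260 with oil and 1480 to 1540 with DES, with 3 of 8 lower, among them Krt19, a luminal keratin (-0.92 ± 0.13, adjusted p = 0.00412), while 0 of 5 basal and myoepithelial markers passed (sums of 274 to 291 and 270 to 309). Leukocyte markers summed to 307 to 320 and 231 to 255, with 4 of 9 lower and 1 higher. Pericyte and vascular smooth muscle markers summed to 173 to 199 and 124 to 132, with 2 of 8 higher and 1 lower. Their sum fell while their median difference was 0.5, since a sum follows the brightest genes of a list. Skeletal muscle markers, which bear on Lama2 and Itga7, summed to 4.01 to 4.87 with oil and 3.95 to 4.41 with DES over the 2 detected of 3 on the array, and Ckm was not detected. The part of these shifts in the results above was not tested.

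**Figure D2:**
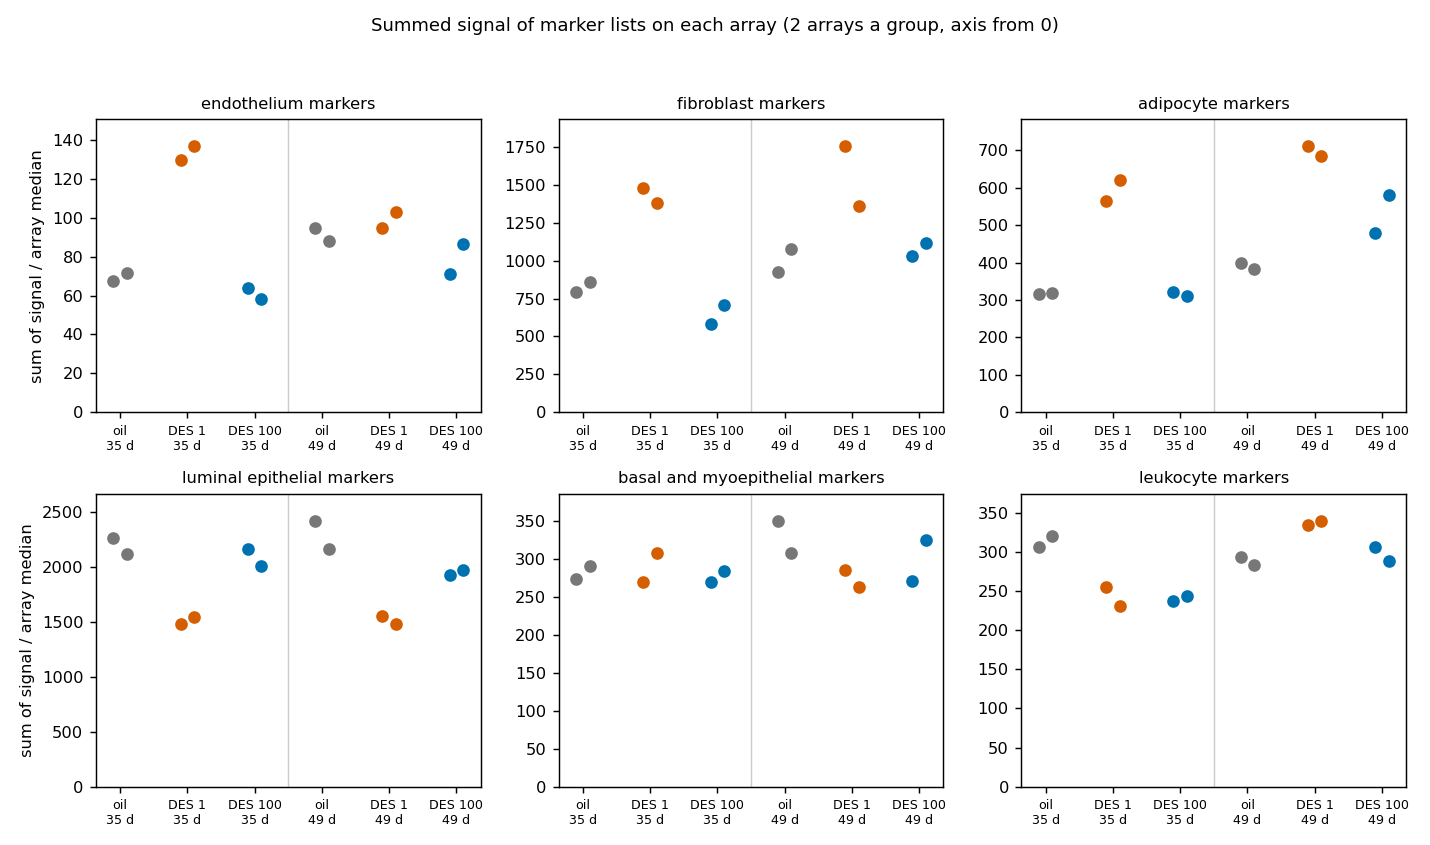
Sum of signal over the array median for 6 marker lists on each of 12 arrays, by group, on axes that start at 0. At 35 days both DES 1 µg arrays lie above the oil and DES 100 µg arrays for endothelium (130 to 137), fibroblasts (1380 to 1480) and adipocytes (566 to 620) and below them for luminal epithelium (1480 to 1540).

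Genes of the wider adhesion pathway were counted beside them. Of 15 tested genes for other basement membrane and matrix ligands, 4 rose with DES 1 µg at 35 days and none fell (median 0.25, against -0.03 over all genes). These included Sparcl1, a relative of Sparc (1.31 ± 0.11, adjusted p = 0.000499), Col15a1, a collagen of vessel and muscle basement membranes (1.23 ± 0.13, adjusted p = 0.00112), and Smoc2, a calcium-binding matrix protein (0.85 ± 0.11, adjusted p = 0.00315). Of 11 genes of the hemidesmosome and the dystroglycan complex, 0 rose and 2 fell (median -0.11). Plec, the plectin that ties keratin to hemidesmosomes, fell (-0.43 ± 0.10, adjusted p = 0.0385), as did Pomgnt1, an enzyme that puts sugars on dystroglycan (-0.55 ± 0.14, adjusted p = 0.0499). Of 20 genes of adhesion proteins inside the cell 1 rose, Nedd9, a docking protein (1.0 ± 0.21, adjusted p = 0.0288).

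With DES 100 µg at 35 days none of 22 tested genes passed in limma, where 1.41% of all genes tested were called (0.457% higher and 0.956% lower). At an unadjusted p under 0.05 there were 3, and the share of all genes at that threshold is not given. Lama1 was 3.19 and 4.52 (difference from oil 0.35 ± 0.25, adjusted p = 0.688), Lama2 was 14.2 and 13.9 (-0.07 ± 0.13, adjusted p = 0.912) and Itga7 was 4.79 and 4.91 (0.25 ± 0.16, adjusted p = 0.647). The genes with an unadjusted p under 0.05 were Itgb6, the epithelial beta 6 chain that pairs with alpha v (0.43 ± 0.14), Itgb2, the beta chain of leukocyte integrins (-0.60 ± 0.23), and Nid2, the second nidogen (0.52 ± 0.19). Of 9 leukocyte markers 5 were lower with DES 100 µg at 35 days and none higher (sums of 237 to 244, against 307 to 320 with oil), and their part in the Itgb2 value was not tested. No tested gene of the other matrix ligands (15), the hemidesmosome and dystroglycan complex (10) or the adhesion proteins inside the cell (20) passed either.

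The doses were also set against each other at 35 days, a comparison that shares the DES 1 µg arrays with the one above. Of 23 tested genes 2 were higher with DES 100 µg, 3 were lower and 18 did not pass (21.7% called, against 8.18% of all genes, 4.26% higher and 3.92% lower). Lama1 (1.61 ± 0.25, adjusted p = 0.0061) and Itgb6 (0.57 ± 0.14, adjusted p = 0.0459) were higher. A second Lama1 probe gave -1.22 ± 1.26, opposite in sign, and the Lama1 call ended with the mean of detected probes. Itgb6 stood at 17.6 and 17.4 with oil, 17.3 and 14.7 with DES 1 µg and 22.7 and 24.6 with DES 100 µg. Lama2 (-0.94 ± 0.13, adjusted p = 0.00307), Itga7 (-0.69 ± 0.16, adjusted p = 0.0352) and Sparc (-0.84 ± 0.17, adjusted p = 0.0181) were lower, with Sparc at 23.9 and 19.1 with DES 100 µg. Nid1, at 13.1 and 23.7 with DES 100 µg, missed the threshold (-1.08 ± 0.28, adjusted p = 0.0548), as did Itga1 at 9.12 and 15.1 (-1.29 ± 0.36, adjusted p = 0.0674).

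Arrays of both doses at 35 days were scanned together on 1 day, and within it the differences were 2.10 for Lama1, 0.74 for Itgb6, -0.99 for Lama2, -0.80 for Itga7 and -0.92 for Sparc. Calls of Lama1 and Lama2 held without any array in turn, that of Sparc ended without 3 arrays (adjusted p = 0.0704 without DES 1 µg array 1, 0.0614 without its array 2 and 0.108 without DES 100 µg array 2), and those of Itga7 and Itgb6 ended without 9 and 10 of the 12 arrays (adjusted p = 0.051 to 0.203 and 0.0505 to 0.242). Without DES 1 µg array 2, 2 genes passed in place of 5, and 3 passed without its array 1, either DES 100 µg array or any of the 4 oil arrays. Endothelium markers summed to 58.3 to 63.8 with DES 100 µg at 35 days, fibroblast markers to 580 to 711, adipocyte markers to 310 to 322 and luminal markers to 2010 to 2160. Of these lists 7 of 8, 3 of 9 and 5 of 7 stromal genes were lower than with DES 1 µg and 3 of 8 luminal genes were higher. Their part in the dose difference was not tested.

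**Figure D3:**
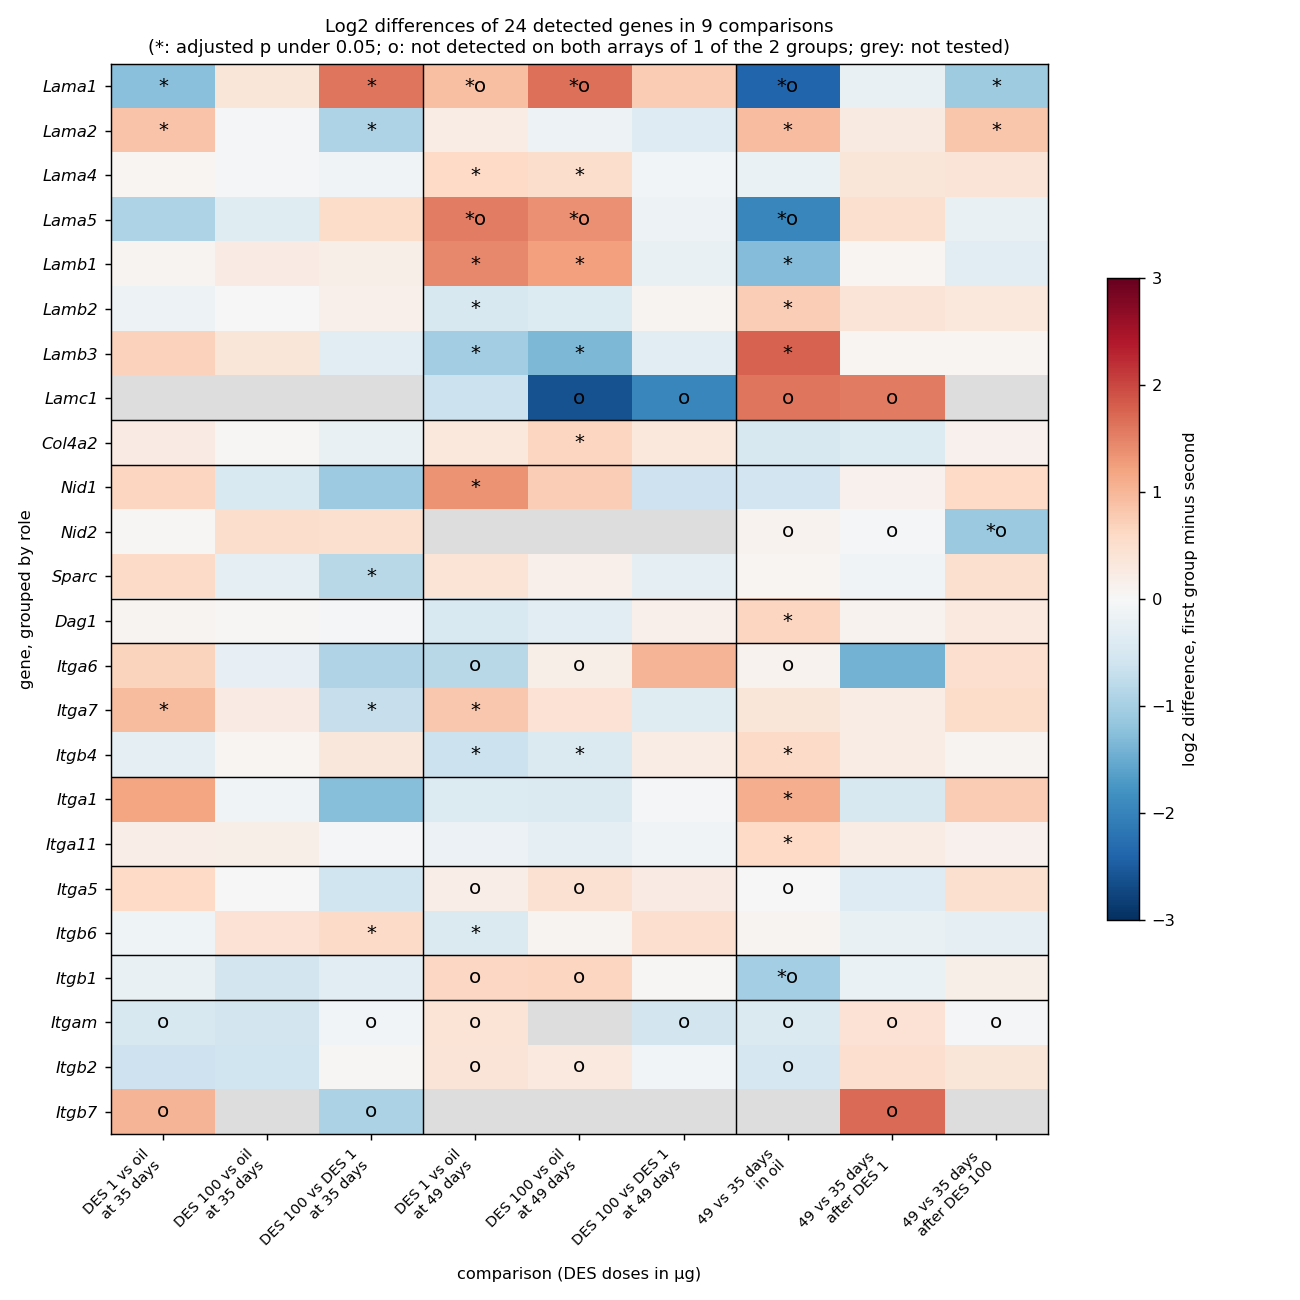
Log2 differences (colour, first group minus second) of the 24 genes, grouped by role, in 9 comparisons, with an asterisk for an adjusted p under 0.05, a circle where 1 of the 2 groups did not detect the gene on both arrays and grey where it was not tested. DES 1 µg at 35 days has 3 asterisks, DES 100 µg at 35 days none, and the comparisons with oil at 49 days have 10 and 7.

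At 49 days, the age at which the oil arrays stood apart, laminin chains again changed in both directions: Lamb1, Lama1, Lama4 and Lama5 were higher at their brightest probe with either dose and Lamb3 was lower. The second Lama5 probe was lower with both doses, and both its differences passed (-2.41 ± 0.77 and -2.56 ± 0.77, adjusted p = 0.044 and 0.0423 over probes), so Lama5 has no settled direction here. With DES 1 µg 6 of 22 tested genes were higher, 4 lower and 12 did not pass (45.5% called, against 33.2% of all genes, 12.9% higher and 20.3% lower). With DES 100 µg 5 of 21 were higher, 2 lower and 14 did not pass (33.3% called, against 25.5% of all genes, 10.8% higher and 14.8% lower). Medians were 0.27 and 0.18, against -0.09 and -0.07 over all genes. These comparisons share the oil arrays, so their values are given side by side.

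Lamb1 gave the largest rise with DES 1 µg among laminin chains detected on every array. It stood at 10.4 and 10.1 with oil, at 28.9 and 27 with DES 1 µg and at 27.2 and 21.4 with DES 100 µg. These were differences of 1.45 ± 0.21 (2.73-fold, adjusted p = 0.00277) and 1.23 ± 0.21 (2.35-fold, adjusted p = 0.00635), and both calls held without any array in turn. On the other 6 arrays, those of 35 days, Lamb1 lay between 21.7 and 32.1, so the oil arrays at 49 days were the low ones. Lama4, at 7.74 and 8.17 with oil, was 13 and 11.2 with DES 1 µg (0.60 ± 0.13, adjusted p = 0.0123) and 11.8 and 11.1 with DES 100 µg (0.53 ± 0.13, adjusted p = 0.0239).

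At their brightest probes Lama1 and Lama5 were not well above background on either oil array at 49 days, so only bounds for these probes can be given. Lama5 was 2.01 and 2.24 with DES 1 µg and 2.26 and 1.61 with DES 100 µg, at least 2.05-fold and at least 1.84-fold higher than oil (adjusted p = 0.00422 and 0.00807). Lama1 was 1.02 and 1.11 with DES 1 µg, at least 1.03-fold higher (adjusted p = 0.027), and 2.14 and 1.53 with DES 100 µg, at least 1.75-fold higher (adjusted p = 0.00405). Each bound sets the mean of the DES arrays against the higher of the signal and the lowest detected signal on the oil arrays. The adjusted p values belong to the fitted differences, which used the undetected oil signals, and not to the bounds. When every array was floored at the detection limit of the oil arrays, the Lama1 calls ended with DES 1 µg (0.05, adjusted p = 0.963) and with DES 100 µg (0.80, adjusted p = 0.0554), as did that of Lama5 with DES 100 µg (0.88, adjusted p = 0.0585). With no filter on detection the Lama1 call with DES 1 µg ended too (adjusted p = 0.0573). With the mean of detected probes the calls of Lama1 and Lama5 ended for both doses.

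Lamb3, Itgb4 and Lamb2 were lower with DES 1 µg at 49 days, and Lamb3 and Itgb4 with DES 100 µg. Lamb3 stood at 2.93 and 2.87 with oil, above every other array, at 1.35 and 1.47 with DES 1 µg (-1.04 ± 0.31, adjusted p = 0.0351) and at 1.13 and 1.14 with DES 100 µg (-1.35 ± 0.31, adjusted p = 0.0178). Itgb4 stood at 231 and 214 with oil, again above every other array, at 144 and 141 with DES 1 µg (-0.64 ± 0.10, adjusted p = 0.0037) and at 165 and 168 with DES 100 µg (-0.42 ± 0.10, adjusted p = 0.0204). Lamb2 was 273 and 264 with oil and fell to 206 and 179 with DES 1 µg (-0.48 ± 0.15, adjusted p = 0.0389), with 181 and 227 for DES 100 µg (-0.41 ± 0.15, adjusted p = 0.0791). Under 75th percentile scaling the calls of Lamb2 and Lamb3 with DES 1 µg and of Itgb4 with DES 100 µg ended. Quantile normalization also ended those of Lamb2 and Itgb4. With no filter on detection those of Lamb2 and Lamb3 ended. The calls of Itgb4 with DES 1 µg and of Lamb3 with DES 100 µg held under these settings.

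Linkers and receptors added 4 calls at 49 days. Nid1, at 16.6 and 15.6 with oil, was 47 and 35.8 with DES 1 µg (1.35 ± 0.28, adjusted p = 0.00981) and 26.6 and 26.6 with DES 100 µg (0.73 ± 0.28, adjusted p = 0.0921). Itga7, at 5.51 and 4.95 with oil, was 9.32 and 8.87 with DES 1 µg (0.80 ± 0.16, adjusted p = 0.00818) and 6.16 and 8.18 with DES 100 µg (0.44 ± 0.16, adjusted p = 0.0743). Itgb6, at 19.1 and 18.2 with oil, was 15.2 and 12.6 with DES 1 µg at its brightest probe (-0.43 ± 0.14, adjusted p = 0.0457), while its second probe rose (0.77 ± 0.23). Col4a2, the collagen IV alpha 2 chain that pairs with alpha 1, was 2.6 on each oil array, 3.25 and 3.29 with DES 1 µg (0.33 ± 0.19, adjusted p = 0.214) and 4.03 and 4.07 with DES 100 µg (0.64 ± 0.19, adjusted p = 0.0427). The Itgb6 call ended under 75th percentile scaling and quantile normalization, and that of Col4a2 under quantile normalization. In the authors' deposited tables of at least 2-fold differences at 49 days, the ratios to oil were 2.723 and 2.346 for Lamb1, 2.892 and 2.602 for Lama5 and 0.487 and 0.393 for Lamb3 (DES 1 µg and DES 100 µg), and 3.163 for Lama1 with DES 100 µg. Among probes not chosen here, the authors' deposited tables list Lama4 at 5.206 and 4.781 and Nid1 at 3.658 and 2.264 (DES 1 µg and DES 100 µg). They also list Col4a2 at 0.424 with DES 1 µg, opposite in sign to its chosen probe, and Itgb6 at 2.091 with DES 100 µg, where its chosen probe did not pass. Sparc did not pass with either dose (0.42 ± 0.17 and 0.15 ± 0.17), nor did Dag1, with 528 and 515 in oil (-0.46 ± 0.16 and -0.31 ± 0.16).

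Left without 1 array at a time, the counts at 49 days ranged from 3 to 11 for DES 1 µg and from 3 to 8 for DES 100 µg. Calls of Itgb4, Lama5 and Lamb1 with DES 1 µg and of Lama1 and Lamb1 with DES 100 µg held throughout, and those of Itgb6 and Lamb2 with DES 1 µg each ended without 8 of the 12 arrays (adjusted p = 0.0586 to 0.235 and 0.0519 to 0.185). With DES 1 µg the calls of Lamb3, Lama1 and Lama4 ended without 4, 3 and 2 arrays, and those of Itga7 and Nid1 without DES 1 µg array 1 (adjusted p = 0.0519 and 0.0654). With DES 100 µg those of Col4a2, Lama4, Lamb3 and Itgb4 ended without 6, 4, 4 and 3 arrays, and that of Lama5 without DES 100 µg array 1 (adjusted p = 0.0546). Without oil array 1 at 49 days 5 genes passed with DES 1 µg, without DES 1 µg array 1 it was 3 and without DES 1 µg array 2 it was 6. For DES 100 µg the counts were 3 without oil array 1, 4 without oil array 2 and 3 without DES 100 µg array 1.

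Marker sums at 49 days were 87.9 to 95 for endothelium with oil, 94.7 to 103 with DES 1 µg and 71 to 86.4 with DES 100 µg. For fibroblasts they were 925 to 1080, 1360 to 1760 and 1030 to 1120, for adipocytes 383 to 400, 684 to 712 and 480 to 581, and for luminal epithelium 2160 to 2420, 1480 to 1550 and 1930 to 1970. Basal and myoepithelial markers summed to 308 to 351, 264 to 286 and 271 to 325, and pericyte and vascular smooth muscle markers to 133 to 136, 129 to 131 and 167 to 172. With DES 1 µg 5 of 8 endothelium markers were higher and 2 lower, 5 of 8 pericyte markers higher and 2 lower, 7 of 8 fibroblast and 6 of 7 adipocyte markers higher, and 4 of 8 luminal markers lower and 1 higher. For the larger dose 1 of 8 endothelium markers was higher and 2 lower, 4 of 9 pericyte, 3 of 8 fibroblast and 4 of 7 adipocyte markers were higher, 1 fibroblast marker was lower, and 2 of 8 luminal markers were higher and 1 lower. The part of these differences, and of the higher detection limit of the oil arrays, in the calls at 49 days was not tested. In the adhesion lists, 6 of 15 other matrix ligands rose with DES 1 µg and 2 fell, and 2 rose with DES 100 µg, with Sparcl1 at 1.38 ± 0.11 and 0.55 ± 0.11 (adjusted p = 0.000452 and 0.0121). Of 10 hemidesmosome and dystroglycan genes 1 rose and 4 fell with DES 1 µg, and 0 rose and 3 fell with DES 100 µg, among them Plec (-0.43 ± 0.10 and -0.45 ± 0.10). Cd151, a membrane partner of laminin-binding integrins, fell with DES 1 µg (-0.48 ± 0.10, adjusted p = 0.011). Adhesion proteins inside the cell rose in 5 of 18 and fell in 1 with DES 1 µg, and rose in 6 of 19 and fell in 1 with DES 100 µg, with Bcar1, a docking protein of focal adhesions, at 1.39 ± 0.16 and 1.32 ± 0.16 (adjusted p = 0.00114 and 0.00189).

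Between the doses at 49 days none of 22 tested genes passed in limma, with 7.29% of all genes called (3.8% higher and 3.49% lower). An unadjusted p under 0.05 was reached by 4, and the share of all genes at that threshold is not given. Itgb6, at 15.2 and 12.6 with DES 1 µg and 18.3 and 21.1 with DES 100 µg, came nearest (0.51 ± 0.14, adjusted p = 0.0683). Lama1 (0.77 ± 0.25, adjusted p = 0.105), Lama2 (-0.38 ± 0.13, adjusted p = 0.112) and Itga6 (1.02 ± 0.41, adjusted p = 0.173) were the others. In these 4 genes the arrays of the doses did not overlap, which again is no test, and the share of all genes so separated is not given.

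Age was compared within each treatment. In oil 7 of 23 genes were higher at 49 than at 35 days, 4 lower and 12 did not pass (47.8% called, against 42.5% of all genes, 28.4% higher and 14.1% lower). Lama2 rose from 14.9 and 14.5 to 28.9 and 27.2 (0.93 ± 0.13, adjusted p = 0.00174), so that oil at 49 days overlapped in range with DES 1 µg at 35 days (26.2 and 27.6). Its second brightest probe did not rise with age in oil (-0.21 ± 0.19). Itga11, a second collagen-binding chain, stood at 1.94 and 2.12 at 35 days and 2.82 and 3.35 at 49 days, Itga1 at 9.77 and 16.1 and then 29.9 and 24.2, Dag1 at 345 and 319 and then 528 and 515, and Lamb2 at 168 and 155 and then 273 and 264. Lamb3 (1.78 ± 0.31), Lamb2 (0.73 ± 0.15), Itgb4 (0.57 ± 0.10), Dag1 (0.65 ± 0.16), Itga1 (1.10 ± 0.36) and Itga11 (0.60 ± 0.13), rose with age in oil too (adjusted p = 0.00385, 0.00648, 0.00401, 0.0139, 0.0382 and 0.00873). Lamb1 fell (-1.30 ± 0.21, adjusted p = 0.00304), and of its 4 detected probes 3 passed and the fourth gave 0.40 ± 0.35. In some genes another probe passed over probes where the chosen one did not. It fell in Lama4 (-2.29 ± 0.31), Nid1 (-1.52 ± 0.33) and Itgb6 (-1.50 ± 0.23) and rose in Col4a2 (1.66 ± 0.52). At their brightest probes Lama1 and Lama5 were at least 2.87-fold and 2.76-fold lower (adjusted p = 0.000891 and 0.00159 for the fitted differences, not for these bounds). The second Lama5 probe rose (2.85 ± 0.77, adjusted p = 0.019 over probes) and the mean of detected Lama5 probes differed by 0.44, so Lama5 has no settled direction with age. Itgb1, the beta 1 chain shared by most matrix receptors, was 3.22 and 3.08 at 35 days and 1 and 2.39 at 49 days, the last pair detected on 1 array only (-1.03 ± 0.36, adjusted p = 0.0474), and its call ended without 11 of the 12 arrays (adjusted p = 0.0529 to 0.244). The calls of Itga1, Dag1 and Itga11 ended without 5, 3 and 2 arrays. Quantile normalization ended the calls of Itga1, Dag1, Itgb4 (adjusted p = 0.153) and Lamb2 (adjusted p = 0.0554) with age in oil. That of Itga1 also ended under 75th percentile scaling and with no filter on detection, and that of Dag1 with the mean of detected probes. The calls of Lama2, Lamb1, Lamb3 and Itga11 held under these settings. Between the ages in oil 5 of 9 leukocyte markers were lower and 1 higher, 3 of 8 pericyte and vascular smooth muscle markers lower and 2 higher, 3 of 7 adipocyte markers lower and 2 higher, and 3 of 7 endothelium markers higher. Their part in the age differences was not tested.

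After DES 1 µg none of 24 genes passed between the ages in limma, where 4.3% of all genes were called (3.56% higher and 0.737% lower). An unadjusted p under 0.05 was reached by 4, and the share of all genes at that threshold is not given. Itga6, the laminin-binding alpha 6 chain, came nearest in adjusted p, from 1.05 and 1.74 to 0.534 and 0.486 (-1.41 ± 0.41, adjusted p = 0.0953). With DES 100 µg 1 of 22 rose and 2 fell (13.6% called, against 6.16% of all genes, 4.59% higher and 1.57% lower). Lama2 rose from 14.2 and 13.9 to 22.4 and 28 (0.84 ± 0.13, adjusted p = 0.00821), and Lama1 fell from 3.19 and 4.52 to 2.14 and 1.53 (-1.07 ± 0.25, adjusted p = 0.0428). Nid2, at 0.604 and 0.458 at 35 days, was not well above background at 49 days and at least 1.78-fold lower (adjusted p = 0.0122 for the fitted difference, not for this bound). The Nid2 call ended with every array floored at the detection limit of the oil arrays at 49 days (adjusted p = 1). Without 9 arrays in turn the Lama1 call ended, and without 2 each those of Lama2 and Nid2.

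Whether the DES effect itself changed between 35 and 49 days was tested as an interaction, which includes the oil arrays at 49 days. For DES 1 µg 5 of 24 genes passed, 3 upward and 2 downward (20.8%, against 21.2% of all genes, 9.59% higher and 11.6% lower), all of them laminin chains. For DES 100 µg 3 of 23 passed, 1 upward and 2 downward (13%, against 10% of all genes, 4.67% higher and 5.35% lower). The Lamb1 effect moved from 0.08 at 35 days to 1.45 at 49 days (change 1.37 ± 0.30, adjusted p = 0.0201). That of Lama2 moved from 0.87 to 0.22 at its brightest probe (change -0.65 ± 0.18, adjusted p = 0.0362). The oil level at that probe rose with age, while the DES 1 µg level was 26.2 and 27.6 at 35 days and 33 and 32.1 at 49 days. At the second brightest Lama2 probe the effect moved from 0.50 to 0.97 instead. The Lama2 call ended with the mean of detected probes.

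Genes with several detected probes allowed a check of the chosen probe, and not all probes agreed. For Lama2 all 4 detected probes were higher with DES 1 µg than with oil at 35 days (0.50 to 0.95). The brightest passed, 2 did not and the fourth was not detected on both arrays of either group. At 49 days the second brightest Lama2 probe rose with DES 1 µg (0.97 ± 0.19, adjusted p = 0.00847 over probes), where the brightest did not pass (0.22 ± 0.13). Lamb1 had 3 of 4 probes that rose with both doses at 49 days, and the fourth at -0.34 and -0.39. For Lama4 all 3 probes, and for Nid1 both, had positive differences with either dose at 49 days. Lama1 had a second probe at 1.69 ± 1.26 with DES 1 µg at 35 days, opposite in sign to the chosen probe and with a large error. Lama5 had a second probe, detected in 3 groups, at -2.41 ± 0.77 and -2.56 ± 0.77 with DES 1 µg and DES 100 µg at 49 days, against 1.53 and 1.38 for the chosen probe. The second probe of Itgb6 rose with DES 1 µg at 49 days (0.77 ± 0.23, adjusted p = 0.034 over probes), where the chosen probe fell, so Itgb6 has no settled direction there. For Col4a2 other probes gave -0.95 ± 0.52 and -0.04 ± 0.48 with DES 100 µg at 49 days. Lamb3, Itga7, Itgb4, Lamb2 and Sparc rested on 1 detected probe each.

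**Figure D4:**
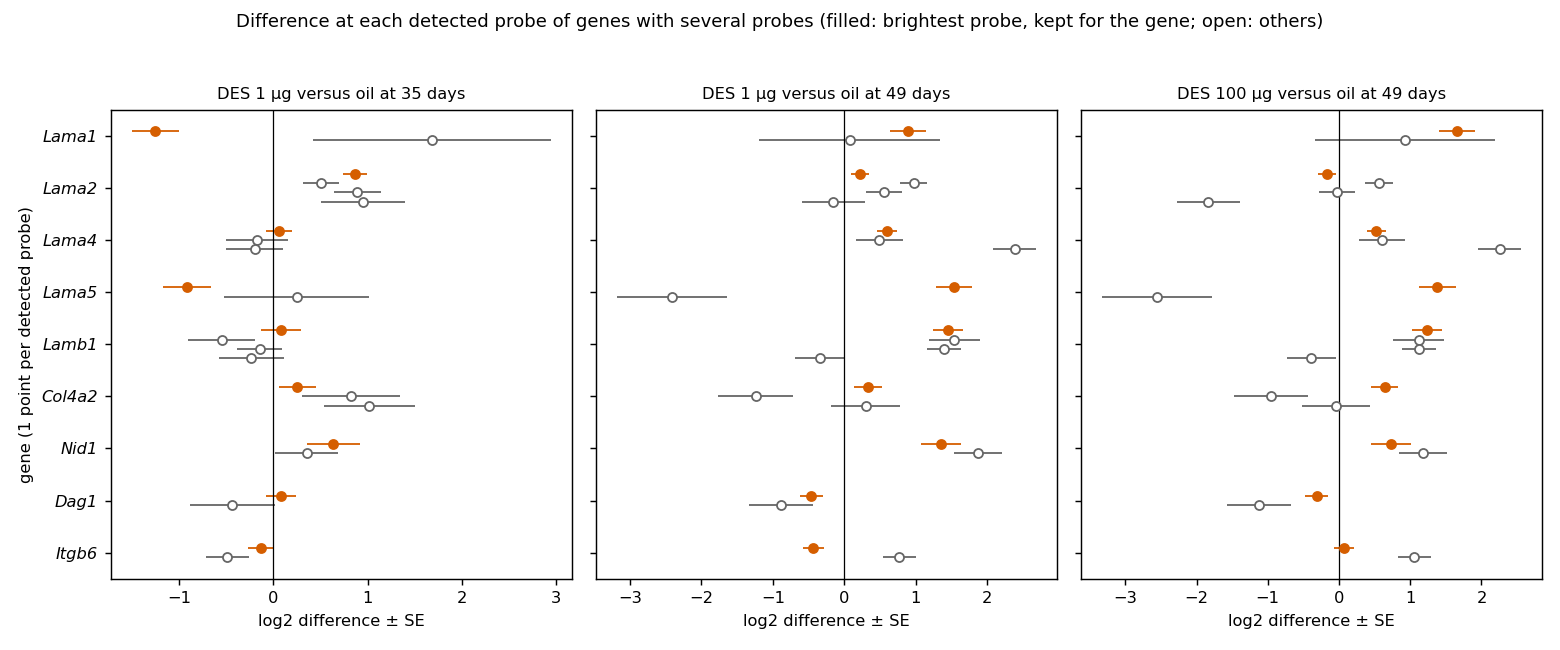
Log2 difference with its SE at every detected probe of 9 genes with several probes, in 3 comparisons of DES with oil, filled for the brightest probe and open for the others. All 4 Lama2 probes lie above 0 with DES 1 µg at 35 days, while the probes of Lama5 lie on opposite sides of 0 at 49 days (1.53 and -2.41 with DES 1 µg).

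The remaining genes passed in no comparison, or were near the detection limit. Itga6, the alpha 6 partner of Itgb4, ranged from 0.486 to 1.74 over the 12 arrays, was not detected with oil at 49 days and passed nowhere. Itga5 ranged from 0.429 to 0.721 and also passed nowhere. The leukocyte chains Itgb2 (0.762 to 1.48), Itgam, the alpha M chain of macrophages and neutrophils (0.303 to 0.653), and Itgb7, a beta chain of lymphocytes (0.112 to 4.7, detected in 1 group), did not pass either. Lamc1, the most widespread gamma chain, was detected in 2 groups and varied from 0.117 to 1.39, with 0.154 and 1.35 on the oil arrays at 35 days alone. A further 8 genes had probes but were not detected on both arrays of any group: Col4a3, Col4a4, Col4a5, Hspg2 (perlecan, a proteoglycan of the sheet), Itga2, Itga3, Itga4 and Itgad.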

How the data were processed

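Per the labels, RNA was amplified, labelled and hybridized to 1-colour Agilent arrays read with Agilent Feature Extraction 9.1.3.1 (per the submitters' processing notes). The deposited value table holds background-subtracted signal intensity, unscaled, equal to the scanner files of 10 arrays within 0.497%. The authors' deposited normalized table gives a ratio per group: signal over the median of its array, averaged on the log scale and divided by the mean of oil at 35 days (99.99% of detected values matched within 0.05 on the log2 scale). Its flags gave detection. The authors' deposited fold tables list ratios with no test. For the genome build of the probes, the sources used here name none.

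Intensities of 20499 probes were divided by the array median, floored at 0.01 and taken to log2. RefSeq tables named 6547 probes by accession, 2451 and 2157 by symbol or gene ID in the description and 695 by older symbol, while 8649 had no name. The brightest of 13266 detected probes stood for each gene, leaving 11962 features, 6749 of them with a symbol. The 12 arrays were fitted together, by limma 3.58.1 in R 4.3.3, with 6 group means (6 residual and 2.29 prior degrees of freedom), and p was adjusted by Benjamini-Hochberg over the features detected in a group compared, at 0.05. The fit was tested on simulated data. Some genes are not reported here. Every other gene of the rule is named, in order of role, with array values in the text or plot for those that passed. The genes and lists were chosen with earlier results of these data known. The normexp alternative used median spot signals, as the planned mean signals were not in the files used here.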

Additional observations from a re-analysis of the deposited data

Results flagged for a closer look

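The DES effect differed between 35 and 49 days, by an interaction test, in 5 laminin chains with DES 1 µg and in 3 genes with DES 100 µg. These are 20.8% and 13% of the genes tested, near the 21.2% and 10% called over all genes. With DES 1 µg the change was 2.15 ± 0.35 for Lama1 (adjusted p = 0.0092), -0.65 ± 0.18 for Lama2 (adjusted p = 0.0362), 2.45 ± 0.36 for Lama5 (adjusted p = 0.00657), 1.37 ± 0.30 for Lamb1 (adjusted p = 0.0201) and -1.72 ± 0.44 for Lamb3 (adjusted p = 0.0312). With DES 100 µg it was 1.75 ± 0.36 for Lama5 (adjusted p = 0.0248), -1.72 ± 0.44 for Lamb3 (adjusted p = 0.0462) and -1.22 ± 0.26 for Nid2 (adjusted p = 0.0287). Lama1 and Lama5 were not well above background on the oil arrays at 49 days, nor was Nid2 on any array at 49 days, so their values are fitted values and not sizes of change.

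Calls of Lama1 and Lama5 with DES 1 µg held without each array in turn. With the mean of detected probes, however, both ended, as did that of Lama2. The second probes of Lama1 and Lama5 gave changes of -1.61 and -2.66, opposite in sign to the chosen ones. Without 9 of the 12 arrays in turn the call of Lama2 ended (adjusted p = 0.0531 to 0.114), as did those of Lamb1 and Lamb3 without 6 each (0.0518 to 0.0643 and 0.0693 to 0.0978). With DES 100 µg the calls of Lama5, Lamb3 and Nid2 ended without 6, 9 and 7 arrays (0.0563 to 0.0821, 0.0545 to 0.133 and 0.0538 to 0.093).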

How the results depend on the processing

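A fixed block for scan day, on 10 arrays, left 1 residual degree of freedom. The counts of called genes were then 0 with DES 1 µg at 35 days and between the doses at 35 and 49 days. Between the doses at 49 days it was 0 without the block too. With age after DES 100 µg the count was also 0, and all these counts were 0 for all genes as well. At an unadjusted p under 0.05 they were, in this order, 6, 7, 2 and 2, beside 1291, 2388, 1581 and 1312 of all genes. Of 11 called differences 0 changed sign. With no filter on detection 6 genes passed for DES 1 µg at 49 days and 0 for the change with age of the response to DES 100 µg. A common floor at the highest detection limit (1.04 of the median), chosen after seeing the data, gave 4 for DES 100 µg at 49 days and 1 for age after DES 1 µg. For DES 1 µg at 35 days the count was 5 with 75th percentile scaling. Between the doses at 35 days it was 3 without the oil arrays at 49 days and 3 with normexp background correction. Between the doses at 49 days it was 1 with 75th percentile scaling, 1 with quantile normalization and 1 with the mean of detected probes. For age after DES 100 µg it was 1 with the mean of detected probes and 1 with normexp, which used 10 arrays and was also chosen after seeing the data, and for the change with age of the response to DES 1 µg it was 3 with the mean of detected probes. With the mean of detected probes several differences turned sign: Lama1 with DES 1 µg at 35 days (0.22), Itgb6 (0.17) and Lama5 (-0.44) with DES 1 µg at 49 days, Col4a2 (-0.12) and Lama5 (-0.59) with DES 100 µg at 49 days, and Lama5 with age in oil (0.44) and in the change of both effects (-0.10 and -0.03). The cause of these changes was not tested. Of 47 calls in all comparisons, 41 were kept under 75th percentile scaling, 38 under quantile normalization, 33 with no filter, 31 with the mean of detected probes and 47 with a floor at 0.1.

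Leaving out each array in turn, the counts ranged from 1 to 4 (DES 1 µg at 35 days), 0 to 0 (DES 100 µg at 35 days), 3 to 11 and 3 to 8 (each dose at 49 days), 2 to 5 and 0 to 0 (between the doses at 35 and 49 days), 8 to 11, 0 to 0 and 0 to 4 (age in oil, DES 1 µg and DES 100 µg), and 2 to 8 and 0 to 5 (change of each effect). A lone array was assumed to vary like the other groups. The labels do not say whether replicate numbers mark a shared litter or batch. Correlations of the replicate differences ran from -0.12 to 0.44 and were over 0.1 in 6 of 15 pairs of groups, so the numbers were not taken as pairing the samples. With a replicate block the counts were 5, 0, 11 and 9 for DES against oil, 6 and 0 between doses, 10, 0 and 2 for age and 7 and 3 for the changes, and 3 of 47 calls ended: Itgb1 with age in oil (adjusted p = 0.0586), Lama1 with age after DES 100 µg (0.0557) and Lamb3 in the change of the response to DES 100 µg (0.0508). Under 75th percentile scaling all genes shifted by -0.15 with age in oil and -0.12 after DES 1 µg, and the split of all calls moved from 390 higher and 519 lower to 588 and 514 (DES 1 µg at 35 days), 1399 and 2189 to 1881 and 1688 and 1200 and 1650 to 1611 and 1211 (each dose at 49 days), and 3190 and 1590 to 2249 and 2255 (age in oil). It moved from 406 and 84 to 290 and 157 and from 535 and 183 to 443 and 278 (age after each dose), and from 550 and 630 to 742 and 459 (change of the response to DES 100 µg). Signals of Lama1, Lama5, Itga5, Itga6, Itgb2 and Itgam not well above background limit what the oil arrays at 49 days show.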

Other observations

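A few probes were described in words as integrin chains and carried no symbol, so they were not counted among the genes above. The probe for the integrin alpha E2 chain, a lymphocyte integrin, was detected in all 6 groups, with 9.55 and 11.2 in oil at 35 days and 17.4 and 16.5 in oil at 49 days (0.71 ± 0.12, adjusted p = 0.00385). With DES it was 11.9 and 11.1 (1 µg) and 10.2 and 11 (100 µg) at 35 days and 14.9 and 13.4 (1 µg) and 13.3 and 14 (100 µg) at 49 days, and 0 of the comparisons with oil or between doses passed. The probe for the integrin beta 5 subunit ranged from 5.34 to 13.2 and passed in no comparison. A fragment described as Itga6 protein was detected in all 6 groups, unlike the named Itga6 probe, ranged from 4.41 to 12.3 and passed in no comparison (0.87 ± 0.36 with DES 1 µg at 35 days, adjusted p = 0.19). The probe for the integrin alpha v subunit was detected in 0 groups.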
